A study of Mus musculus with 4 samples.

Results

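The genes followed here are 34 genes typical of microglia and macrophages, measured in cultures of primary mouse astrocytes. They form a named list and no measured value enters the rule, though earlier results of these data were known when it was drawn up. All 34 have a probe set of their own in the array table, 1 for each gene, among the 22180 genes so represented. They were grouped by role into 6 genes of homeostatic microglia (*Cx3cr1*, *P2ry12*, *P2ry13*, *Tmem119*, *Gpr34* and *Csf1r*), 15 phagocytic genes, whose products recognize, engulf or digest particles, and 13 general myeloid genes of adhesion, signaling and innate sensing. The cultures came from the cortex of WT and CRTC3 KO pups of postnatal day 1 to 3, both on the C57BL/6J background, and lack of CRTC3 in the KO was present in every cell type of the animal. Each genotype received vehicle (0.1% DMSO) or, for 2 h, 25 µM of forskolin (FSK), an activator of adenylyl cyclase that raises cAMP. Each of the 4 groups was 1 array, so a difference has no error between cultures, no test was made and no p-value is given. How many pups went into a culture is not given in the sources used here.

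Microglia are the resident macrophages of the brain. They arise outside the neural lineage, depend on the receptor CSF1R for survival and on the transcription factor PU.1 (gene *Spi1*) for their identity, and stay loosely attached on top of astrocytes when cortical glia are cultured. Shaking the flask is the usual way to remove them. Per the labels, the flasks were shaken at 225 rpm for 24 h after about 2 weeks of mixed culture. The study's methods give 10 days of culture, a shaking of 2 h to collect microglia and another of 16 h, in a medium with 5 ng/mL of granulocyte-macrophage colony-stimulating factor, a growth factor of myeloid cells.

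The values are log2 signals of Affymetrix mouse 2.0 ST arrays, normalized together by RMA. Array medians over all probe sets lay between 5.48 and 5.50. The median over the probe sets of single genes was 5.81, and it serves here as a line between dim and brighter probe sets. Brightness also depends on the probes, so signals are compared between arrays and not between genes. *Crtc3* had log2 signals of 7.75 and 8.14 on the WT arrays and 4.92 and 5.49 on the KO arrays, with vehicle and FSK. *Xist*, the RNA of the inactive X chromosome, had 9.39 and 9.17 in WT and 4.66 and 4.49 in the KO, a gap that goes with the sex of the cells. The sex of the pups is not given in the sources used here.

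Of the 34 genes, 33 reached the median signal on at least 1 array, against 11993 of all 22180 genes. The exception was *Cd163*, a scavenger receptor for haemoglobin of some tissue macrophages, which lay between 4.18 and 4.29. *Csf1r* had log2 signals of 10.74 and 10.75 in WT against 11.09 and 11.13 in the KO, with vehicle and FSK. The signals of *Lyz2*, the lysozyme of macrophages, were 11.69 and 11.62 in WT and 11.79 and 11.72 in the KO. All 4 signals of *Lyz2* thus lay within a narrow band, with KO above WT. None of 7 T and B cell markers and only 1 of 9 neutrophil and mast cell markers reached the median signal, the mast cell and progenitor receptor gene *Kit* at 5.83 on the CRTC3 KO FSK array. Of 15 astrocyte markers, 13 reached it. *Gfap*, the astrocyte intermediate filament, was at 11.01 and 10.97 in WT and at 11.41 and 11.49 in the KO. The arrays labelled as primary astrocytes therefore carried the transcripts of both cell types. In such bulk samples, fewer cells of a type and less RNA per cell cannot be told apart.

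**Figure D1:**
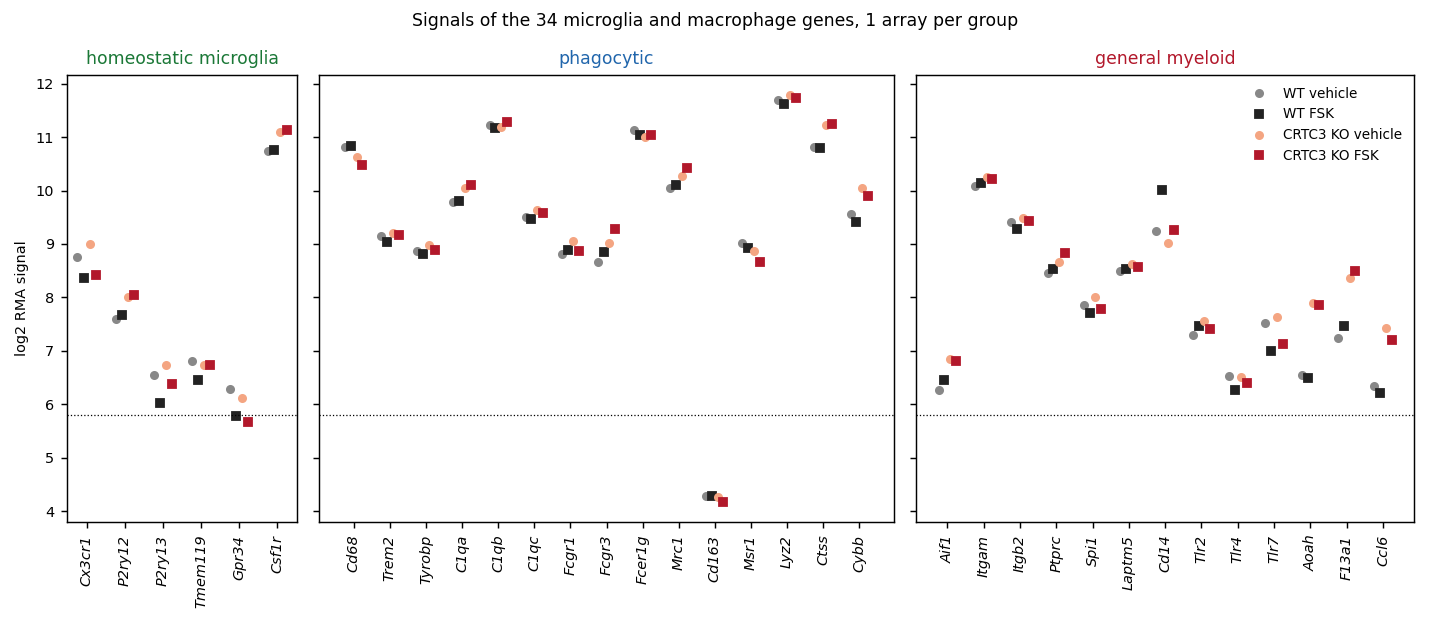
Log2 RMA signal (y axis) of each of the 34 genes (x axis, grouped by role) on the 4 arrays. Circles are vehicle and squares FSK, grey and black are WT, orange and red are CRTC3 KO, and the dotted line is the median signal of 5.81. *Cd163* is the only gene below the line on every array, and *Aoah*, *F13a1* and *Ccl6* show the widest gaps between the genotypes.

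Between the genotypes, 3 of the 34 genes with vehicle were 2-fold or more above WT in the KO and none was as far below. Of all genes, 0.117% were so much higher and 0.478% so much lower. With FSK, 2 members were that far above and none below, against 0.293% and 0.825% of all genes. The same 3 genes stood out on both pairs of arrays, which share no array: *Aoah*, *F13a1* and *Ccl6*, all in the general myeloid group. Whether the vehicle and FSK dishes of a genotype came from separate cultures is not stated, so the recurrence is no replicate of the genotype.

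*Aoah* encodes acyloxyacyl hydrolase, which removes fatty acids from bacterial lipopolysaccharide and so inactivates it. Its log2 signals were 6.55 and 6.50 in WT and 7.90 and 7.86 in the KO, with vehicle and FSK. Both KO arrays lay well above both WT arrays, and FSK made almost no difference. Among the 11993 genes that reached the median signal, its difference of 1.35 with vehicle (2.54-fold) ranked 6 from the top and that of 1.36 with FSK (2.57-fold) ranked 10. *F13a1* encodes the A subunit of coagulation factor XIII, a transglutaminase that cross-links fibrin and that macrophages make. It had signals of 7.25 and 7.47 on the WT arrays and 8.37 and 8.49 in the KO, a difference of 1.12 with vehicle (2.18-fold) and 1.02 with FSK (2.02-fold). *Ccl6* is a chemokine gene of rodent myeloid cells. It had signals of 6.34 and 6.22 on the WT arrays and 7.42 and 7.21 in the KO, differences of 1.08 with vehicle (2.12-fold) and 0.99 with FSK (1.99-fold). The genotypes did not overlap for any of these genes, and *F13a1* and *Ccl6* lay just inside and just outside 2-fold on the FSK arrays. The next highest member with vehicle was *Aif1*, at 0.59.

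The promoters of the 3 genes that differed most are shown because these genes share the genotype difference. Each window runs from 250 bases before to 50 bases after a transcript start in RefSeq (GRCm38.p6), 5′ to 3′ on the strand of the gene. Capitals mark GAGGAA on either strand, a sequence that PU.1 binds. *Aoah* lies at chr13:20793863-20794162 (plus strand), *Ccl6* at chr11:83593038-83593337 (minus strand), and *F13a1* has windows at chr13:37050195-37050494 and chr13:37049164-37049463 (minus strand).
Aoah: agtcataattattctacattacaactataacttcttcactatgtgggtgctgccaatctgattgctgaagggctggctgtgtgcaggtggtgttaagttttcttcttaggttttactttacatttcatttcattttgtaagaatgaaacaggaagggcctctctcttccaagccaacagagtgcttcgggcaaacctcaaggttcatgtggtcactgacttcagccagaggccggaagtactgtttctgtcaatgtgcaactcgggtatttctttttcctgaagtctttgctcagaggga
Ccl6: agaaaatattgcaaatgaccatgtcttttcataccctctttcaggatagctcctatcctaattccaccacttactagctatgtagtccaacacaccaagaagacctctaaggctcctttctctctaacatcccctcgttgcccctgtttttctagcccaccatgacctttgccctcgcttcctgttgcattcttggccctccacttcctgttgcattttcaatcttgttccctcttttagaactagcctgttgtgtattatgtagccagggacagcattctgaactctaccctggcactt
F13a1, upstream start: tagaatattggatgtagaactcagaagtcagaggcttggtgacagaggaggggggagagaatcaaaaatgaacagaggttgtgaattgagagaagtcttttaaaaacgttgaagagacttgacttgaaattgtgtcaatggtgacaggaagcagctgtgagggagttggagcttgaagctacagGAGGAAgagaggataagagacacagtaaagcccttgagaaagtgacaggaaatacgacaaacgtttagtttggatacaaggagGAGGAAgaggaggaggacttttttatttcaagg
F13a1, downstream start: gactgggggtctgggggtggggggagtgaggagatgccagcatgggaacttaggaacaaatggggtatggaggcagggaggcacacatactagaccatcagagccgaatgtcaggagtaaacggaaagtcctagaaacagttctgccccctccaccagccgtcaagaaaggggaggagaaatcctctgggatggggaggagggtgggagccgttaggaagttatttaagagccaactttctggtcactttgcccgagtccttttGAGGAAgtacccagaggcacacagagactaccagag
GAGGAA is found in 2 places in the upstream *F13a1* window, starting at bases 185 and 268, and in 1 place, at base 265, in the downstream one. The *Aoah* and *Ccl6* windows hold no GAGGAA, and other sequences that PU.1 or related factors may bind were not searched for. In RefSeq, *F13a1* neighbours *Ly86*, another myeloid gene, which differed between the genotypes by 0.10 with vehicle and 0.31 with FSK.

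**Figure D2:**
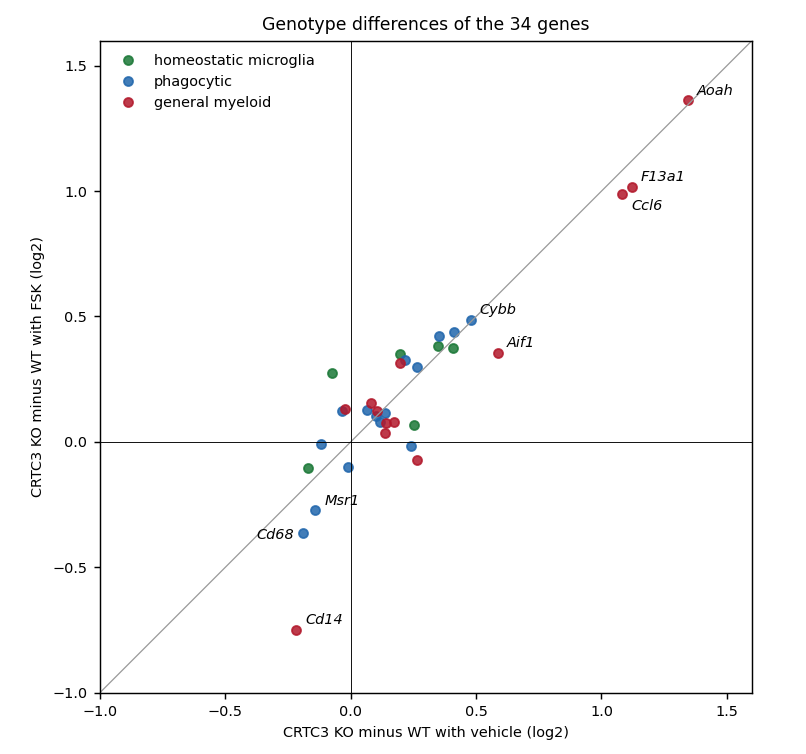
CRTC3 KO minus WT on the log2 scale with vehicle (x axis) and with FSK (y axis), 1 point for each of the 34 genes, coloured by role. The grey line marks equal differences. *Aoah*, *F13a1* and *Ccl6* lie near 1 or above on both axes, and *Cd14* is the lowest with FSK at -0.75.

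Apart from *Aoah*, *F13a1*, *Ccl6*, *Aif1* with vehicle (0.59) and *Cd14* with FSK (-0.75), no genotype difference reached 1.5-fold, and most were upward. The median over all 34 genes was 0.16 with vehicle and 0.13 with FSK, and over the 31 without *Aoah*, *F13a1* and *Ccl6* it was 0.14 and 0.12. The medians over all genes were 0.01 and -0.00, and over genes reaching the median signal 0.02 and 0.03. With vehicle 25 members were higher and 9 lower in the KO, where 51.7% and 48.2% of all genes were, and with FSK 26 were higher and 8 lower, where 49.8% and 50% of all genes were. Of genes that reached the median signal, 55.4% were higher and 44.5% lower with vehicle, and 54.7% and 45.3% with FSK. Past 1.25-fold, a limit set after the values had been seen, were 9 members higher and none lower with vehicle, against 7.99% and 8.07% of all genes, and 11 higher and 2 lower with FSK, against 10.6% and 12.2%. Of genes that reached the median signal, 8.76% and 8.28% passed this limit with vehicle, and 13.4% and 11.9% with FSK. For 19 members (55.9%) both KO arrays lay above both WT arrays, and for 4 (11.8%) below. Of all genes, 25.3% lay above and 22.9% below in this sense, and of those that reached the median signal 34.3% and 23.9%. Across the 34 genes, which are not replicates, the differences with vehicle and with FSK had a Pearson's r of 0.91 (Spearman's rho 0.76). Without *Aoah*, *F13a1* and *Ccl6*, r was 0.76 (rho 0.68), against 0.74 (rho 0.59) over all genes that reached the median signal.

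Among the homeostatic microglia genes, the median was 0.22 with vehicle and 0.31 with FSK. Both KO arrays lay above both WT arrays for *Csf1r* and *P2ry12*, 33.3% of the 6 genes and close to the 34.3% of brighter genes given above. *P2ry12*, the ADP receptor that guides microglial processes to injury, had signals of 7.60 and 7.68 in WT against 8.01 and 8.05 in the KO, a difference of 0.41 and 0.37. *Csf1r*, whose signals are given above, differed by 0.35 and 0.38. *Cx3cr1*, the receptor for the neuronal chemokine fractalkine, and *P2ry13*, another ADP receptor, differed by 0.25 and 0.07 and by 0.20 and 0.35, and their WT and KO signals overlapped. *Tmem119*, a membrane protein gene that sets microglia apart from blood-derived macrophages, and *Gpr34*, a receptor for lysophosphatidylserine, differed by -0.07 and 0.27 and by -0.17 and -0.11.

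The phagocytic genes had a median of 0.11 with vehicle and 0.12 with FSK, and both KO arrays were the higher for 9 of 15 (60%) and the lower for 4 (26.7%), against 34.3% and 23.9% of the brighter genes. The highest was *Cybb*, the catalytic subunit of the phagocyte NADPH oxidase, with 9.57 and 9.41 in WT and 10.05 and 9.90 in the KO, a difference of 0.48 and 0.49. *Cyba*, the gene of its partner chain, went the other way at -0.06 and -0.32. The oxidase subunit genes *Ncf1* and *Ncf4* differed by 0.27 and 0.46 and by 0.32 and 0.26. *Ctss*, the lysosomal protease cathepsin S, differed by 0.41 and 0.44. *Fcgr3*, a receptor for IgG complexes, differed by 0.35 and 0.42. Its probe set could also take signal from related Fc receptor genes, and *Fcgr2b*, the inhibitory receptor, differed by 0.20 and 0.45. *Mrc1*, the mannose receptor, and *C1qa*, a chain of the complement starter C1q, differed by 0.22 and 0.33 and by 0.26 and 0.30.

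The 3 C1q chain genes lie side by side on chromosome 4 and their products assemble into 1 complex, but their differences were not equal. *C1qc* differed by 0.14 and 0.12 and *C1qb* by -0.04 and 0.12. *Trem2*, a lipid-sensing receptor, and *Tyrobp*, the adaptor through which it signals, were nearly level between the genotypes at 0.06 and 0.13 and at 0.11 and 0.08. *Fcer1g*, the signaling chain shared by activating Fc receptors, was level as well at -0.12 and -0.01, and *Fcgr1*, a receptor for monomeric IgG, differed by 0.24 and -0.01. Lower in the KO were *Cd68*, a lysosomal glycoprotein used as a marker of phagocytic activity, with 10.82 and 10.84 in WT and 10.62 and 10.47 in the KO, and *Msr1*, the scavenger receptor A gene, with 9.01 and 8.93 in WT and 8.87 and 8.66 in the KO. These differences were -0.19 and -0.36 for *Cd68* and -0.14 and -0.27 for *Msr1*. The 4 phagocytic genes with both KO arrays lower thus include the nearly level *Fcer1g* and the dim *Cd163*, which differed by -0.01 and -0.10.

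In the general myeloid group, the median was 0.17 with vehicle and 0.13 with FSK. *Aif1*, which encodes the actin-binding protein Iba1 used to stain microglia, had 6.27 and 6.46 in WT and 6.86 and 6.81 in the KO, a difference of 0.59 and 0.36. *Ptprc* (CD45), the phosphatase of all leukocytes, differed by 0.20 and 0.31. The integrin chains *Itgam* (CD11b) and *Itgb2* (CD18), which pair as complement receptor 3, differed by 0.17 and 0.08 and by 0.08 and 0.15. The PU.1 gene *Spi1* differed by 0.14 and 0.07 and the lysosomal membrane protein gene *Laptm5* by 0.14 and 0.04. The Toll-like receptor genes *Tlr2*, *Tlr4* and *Tlr7* differed by 0.26 and -0.07, by -0.02 and 0.13 and by 0.10 and 0.12. The genes from *Ptprc* to *Laptm5* thus lay within 0.31 of the level in WT, and *Aif1* was the only one of the group, apart from the 3 genes above, past 1.5-fold with vehicle, where 1.26% of all genes were that much higher.

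Markers of other cell types differed between the genotypes on the same arrays, some by more than most of these genes. The 15 astrocyte markers had a median difference of 0.44 with vehicle and 0.52 with FSK, and their summed linear signal was 12059 and 12297 in WT against 16548 and 17219 in the KO. The 12 fibroblast and mural cell markers had medians of -0.73 and -0.78, with summed signals of 18160 and 18455 against 9813 and 8507. With vehicle, 4 of them were below WT by 2-fold or more, *Col1a1*, *Col1a2*, *Col3a1* and *Postn*. With FSK 5 were, the same genes and *Dcn* at -1.18. Of all genes, 0.478% and 0.825% were that much lower. For the 34 microglia and macrophage genes, the summed linear signal was 24153 and 23967 in WT and 26763 and 26466 in the KO. With vehicle and FSK, the medians were -0.11 and 0.12 over the T and B cell markers, 0.09 and 0.04 over the neutrophil and mast cell markers, 0.12 and 0.08 over 6 neuron markers, -0.10 and -0.34 over 6 endothelial markers and -0.04 and 0.03 over 7 oligodendrocyte and precursor markers. Whether these differences, or that of *Xist*, had a part in the genotype differences of the 34 genes was not tested. *Xist* and the summed fibroblast and mural cell signal divide the 4 arrays as the genotype does, so they cannot be told apart from it here. Among the members, *Gpr34*, *Tlr7* and *Cybb* are X-linked.

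**Figure D3:**
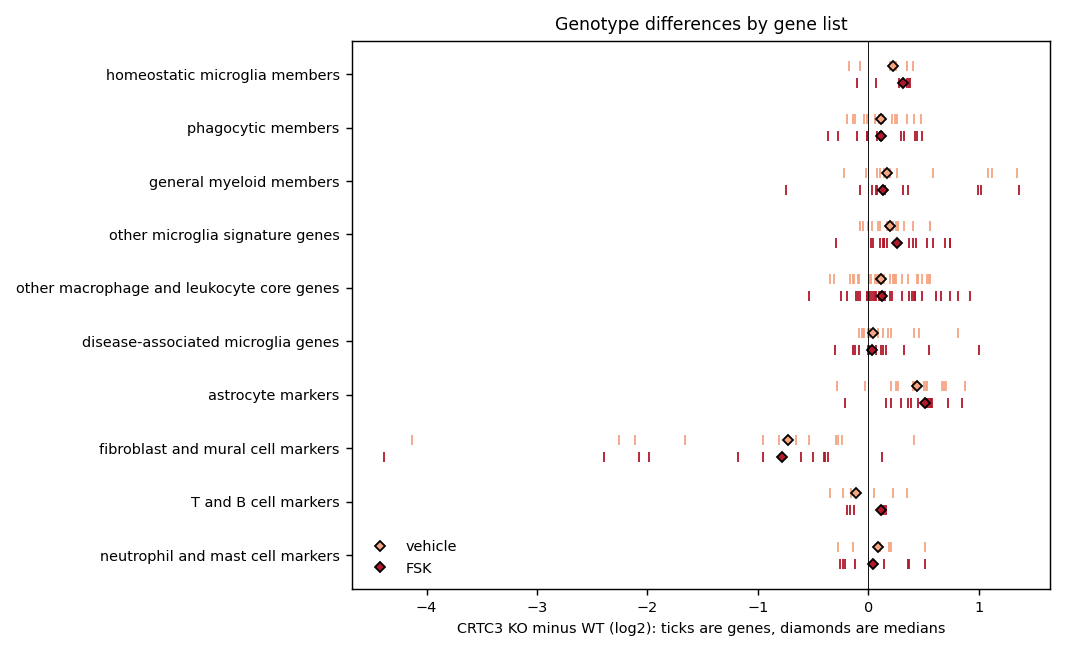
CRTC3 KO minus WT on the log2 scale (x axis) for the genes of 10 lists (y axis). Ticks are single genes and diamonds are list medians, light for vehicle and dark for FSK. The 3 lists of members have medians between 0.11 and 0.31, below the astrocyte markers at 0.44 and 0.52, and the fibroblast and mural cell markers lie at -0.73 and -0.78.

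A further 17 genes of the microglia signature, among them *Fcrls*, *Sall1* and *P2ry6*, were set beside the members, and 15 of these reached the median signal. The KO lay above WT by a median of 0.20 (vehicle) and 0.26 (FSK) over the 17, and 15 and 16 of them were higher in the KO. The astrocyte markers had larger medians on the same arrays, 0.44 and 0.52. Which cells gave the signals of the 17 genes was not measured. Another 32 core genes of macrophages and leukocytes had medians of 0.11 and 0.12, with 25 and 24 higher. Against the counts of both lists, 51.7% and 49.8% of all genes were higher, and 55.4% and 54.7% of those that reached the median signal. Both KO arrays lay above both WT arrays for 15 of the 32 (46.9%) and below for 2 (6.25%), against 34.3% and 23.9% of brighter genes. These 2 were *Plek*, at -0.35 and -0.53, and *Lcp1*, at -0.13 and -0.20. *Sall1*, a transcription factor of microglial identity that other neural cells can also express, differed by 0.25 and 0.74. *Adgre1*, which encodes the macrophage marker F4/80, differed by 0.25 and 0.41. None of these 49 genes was 2-fold apart with vehicle or with FSK. *Csf1*, the gene of a ligand of CSF1R, went the other way: its signals were 10.08 and 9.66 in WT and 9.34 and 9.33 in the KO, a difference of -0.74 with vehicle and -0.32 with FSK. *Il34*, the other ligand, differed by -0.29 and -0.12, and *Cx3cl1*, the ligand of CX3CR1, by 0.08 and -0.15.

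No member responded to FSK by 2-fold in either genotype, where 0.122% of all genes were so much higher and 0.0586% so much lower in WT, and 0.0271% and 0.0496% in the KO. The median response was -0.05 in each genotype, against -0.00 and -0.01 over all genes. In WT 14 members were above 0 and 20 below, where 49.6% and 50.3% of all genes were, and in the KO 12 and 22, where 48.2% and 51.8% were. Of genes that reached the median signal, 46.5% were above 0 and 53.5% below in WT, and 47.3% and 52.7% in the KO. At the limit of 1.25-fold, 1 member was higher and 5 were lower in WT, against 6.67% and 5.3% of all genes, and none was higher and 4 were lower in the KO, against 4.06% and 5.1%. Of these, 4 genes were lower past the limit in both genotypes: *Cx3cr1*, *P2ry13*, *Gpr34* and *Tlr7*. Of all genes 0.658% were, and of those that reached the median signal 0.584%. No array enters the response of both genotypes.

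*Cx3cr1* was at 8.75 with vehicle and at 8.36 with FSK in WT, and at 9.01 and 8.42 in the KO. In both genotypes the FSK array was the lower, by 0.40 in WT and 0.58 in the KO, the latter ranking 38 from the bottom of the 11993 brighter genes. *P2ry13* had 6.54 and 6.03 in WT and 6.74 and 6.37 in the KO, responses of -0.52 and -0.37. *Gpr34* had 6.29 and 5.78 in WT and 6.12 and 5.67 in the KO, responses of -0.51 and -0.45. These 3 genes encode G protein-coupled receptors of resting microglia that act through Gi, the G protein that lowers cAMP, as P2RY12 does too. With FSK, *Gpr34* lay below the median signal, so its response rests on dim values. *Tlr7*, the endosomal sensor of single-stranded RNA, had 7.52 and 7.00 in WT and 7.63 and 7.12 in the KO, responses of -0.52 and -0.50. Both FSK arrays lay below both vehicle arrays for 6 of the 34 members (17.6%), these 4 genes, *Tlr4* and *Spi1*, against 13.2% of all genes and 12.2% of those that reached the median signal.

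The other homeostatic genes did not share this pattern. *P2ry12*, which is the next coding gene to *P2ry13* on chromosome 3 and encodes the closest relative among the members, had responses of 0.08 in WT and 0.04 in the KO. *Csf1r* had 0.01 and 0.05. *Tmem119* had signals of 6.80 and 6.46 in WT against 6.73 and 6.73 in the KO, responses of -0.35 and 0.00, so it was lower with FSK in WT alone. The medians over the 6 homeostatic genes were -0.37 in WT and -0.18 in the KO, against -0.04 and -0.06 over the phagocytic genes and 0.05 and -0.05 over the general myeloid genes. None of the 15 phagocytic genes passed 1.25-fold in either genotype, and their responses lay between -0.16 and 0.18 in WT and between -0.21 and 0.25 in the KO. *Fcgr3* was the highest of these in both genotypes. On the same arrays, the median response was 0.01 and 0.06 over the astrocyte markers and 0.00 and -0.16 over the fibroblast and mural cell markers, in WT and CRTC3 KO.

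The promoters of *Cx3cr1* and *P2ry13*, of the 4 genes lower with FSK, are shown with GAGGAA in capitals. They lie at chr9:120068247-120068546 and chr3:59210833-59211132 (GRCm38.p6, both on the minus strand).
Cx3cr1: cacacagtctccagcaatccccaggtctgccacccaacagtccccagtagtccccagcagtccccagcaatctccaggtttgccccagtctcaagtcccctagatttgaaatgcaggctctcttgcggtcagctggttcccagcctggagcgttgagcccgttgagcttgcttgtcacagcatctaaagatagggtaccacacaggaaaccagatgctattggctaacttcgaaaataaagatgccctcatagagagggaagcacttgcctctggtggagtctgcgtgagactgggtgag
P2ry13: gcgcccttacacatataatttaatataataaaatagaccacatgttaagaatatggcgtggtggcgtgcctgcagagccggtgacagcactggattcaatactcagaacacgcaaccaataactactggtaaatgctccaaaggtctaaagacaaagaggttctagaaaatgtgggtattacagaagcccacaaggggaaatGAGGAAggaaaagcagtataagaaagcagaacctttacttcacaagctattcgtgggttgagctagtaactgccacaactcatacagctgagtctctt
The *P2ry13* window holds GAGGAA in 1 place, starting at base 203, and the *Cx3cr1* window does not hold it. Neither holds TGACG, the shorter form of the cAMP response element to which CREB binds, nor its full form TGACGTCA.

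**Figure D4:**
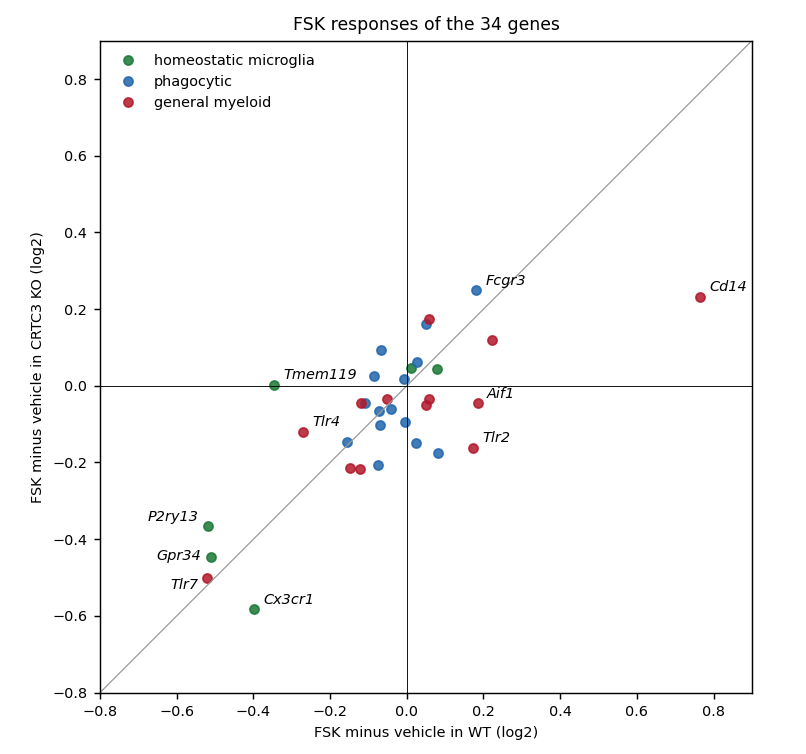
FSK minus vehicle on the log2 scale in WT (x axis) and in the KO (y axis), 1 point for each of the 34 genes, coloured by role. The grey line marks equal responses. *Cx3cr1*, *P2ry13*, *Gpr34* and *Tlr7* lie at the lower left, and *Cd14* lies far to the right at 0.77 in WT and 0.23 in the KO.

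*Cd14*, the receptor that hands lipopolysaccharide to Toll-like receptor 4, was the member with the highest FSK response in WT. In the KO, *Fcgr3* was slightly higher at 0.25. The signals of *Cd14* were 9.24 with vehicle and 10.01 with FSK in WT, and 9.03 and 9.26 in the KO. The WT FSK array stood above the other 3. The response was 0.77 in WT (1.70-fold) and 0.23 in the KO (1.17-fold), and in WT it ranked 46 from the top of the 11993 brighter genes. Of all genes, 1.23% were higher by 1.5-fold or more in WT and 0.514% in the KO. *Cd14* was lower in the KO by 0.22 with vehicle and by 0.75 with FSK, the only member 1.5-fold or more below WT there, as 3.75% of all genes were. Astrocytes can also express this gene, and which cells gave the signal was not measured.

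Its partners did not respond like it. *Tlr4*, the lipopolysaccharide receptor itself, had 6.54 and 6.27 in WT and 6.51 and 6.39 in the KO, responses of -0.27 and -0.12. *Ly96*, the gene of its coreceptor MD-2, had responses of -0.33 and -0.17, and it was lower in the KO by 0.61 with vehicle and by 0.45 with FSK. *Lbp*, the gene of the lipopolysaccharide-binding protein of serum, was higher in the KO by 0.89 and 0.87, with responses of 0.07 and 0.06. *Tlr2*, the receptor for bacterial lipoproteins, responded by 0.17 in WT and -0.16 in the KO. Of the 2 other genes with *Aoah* in the CRTC3 KO difference, *F13a1* responded by 0.22 and 0.12 and *Ccl6* by -0.12 and -0.22, while *Aoah* stayed at -0.05 and -0.03.

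Across the 34 genes, the responses of the genotypes had a Pearson's r of 0.74 (Spearman's rho 0.62), and 24 genes (70.6%) responded in the same direction. Over all genes that reached the median signal r was 0.14, and 50.5% had the same direction. Without the 6 members past 1.25-fold in either genotype, r over the other 28 was 0.46 (rho 0.45). These are descriptions across genes of 4 arrays, and the genes of 1 cell type are not independent of each other. Beyond the members, *Irf8*, a transcription factor gene of microglia, had responses of -0.44 in WT and -0.49 in the KO. The anaphylatoxin receptor gene *C3ar1* had -0.35 and -0.54 and the Toll-like receptor gene *Tlr13* -0.35 and -0.47. These were the only genes lower by at least 1.25-fold in both genotypes among the 32 macrophage and leukocyte genes and the 21 complement and Toll-like partners, while *Cd86*, a costimulatory ligand of myeloid cells, was higher by 0.72 and 0.33. *Tlr8*, the neighbour of *Tlr7* on the X chromosome, responded by -0.15 and 0.07.

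Promoter sequences did not enter the choice of the genes. The list is nonetheless of genes typical of cells that depend on PU.1, so the share with GAGGAA is not independent of that choice. Of the 34 members, 23 have promoter windows in the RefSeq table used here, and 15 of these (65.2%) hold GAGGAA on either strand. The same was found for 31.3% of all 27025 genes with such windows. By role, 9 of 12 phagocytic, 5 of 8 general myeloid and 1 of 3 homeostatic genes held it. The *Itgam* window (chr7:128062390-128062689, plus strand, GRCm38.p6) is shown as the richest in the general myeloid group, with 3 places.
Itgam: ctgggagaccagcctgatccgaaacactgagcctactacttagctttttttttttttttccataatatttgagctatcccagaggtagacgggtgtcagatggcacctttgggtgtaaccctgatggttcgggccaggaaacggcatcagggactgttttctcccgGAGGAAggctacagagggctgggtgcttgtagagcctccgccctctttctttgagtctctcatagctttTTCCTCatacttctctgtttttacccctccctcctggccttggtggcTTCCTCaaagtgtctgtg
Full cAMP response elements (TGACGTCA) were in none of the 23, against 2.03% of all genes, and the shorter TGACG, which the full form contains, was in 4 (17.4%) against 23%. A match to these letters does not show that a factor binds there. The 11 members without a window include *Cd14*, *Gpr34* and *Tlr7*.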

How the data were processed

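Total RNA of 4 samples was hybridized to Affymetrix GeneChip mouse 2.0 ST arrays, 1 per group. The authors extracted the signals with Affymetrix software and applied RMA in its Expression Console, and they deposited gene-level log2 values, which were used as deposited (range 1.42 to 13.11). RMA corrects background, equalizes the arrays and compresses differences at low signal. The version of Expression Console and the annotation build are not given in the sources used.

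Probe sets with 1 gene symbol in GEO's platform annotation were kept (23521 of 41345), and a gene was represented by the probe set with the highest mean. No member has several. Differences are log2 values of 1 array minus another, and a gene was called at a fold of 2. The study's methods compare arrays by fold-change. Precision is limited by the number of arrays.

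Groups came from the sample labels. The members, roles and 13 companion lists were chosen with earlier results of these data known. All members were described. Companion genes that differ 2-fold were named as well, with some of the partners of members. *Sall1*, *Adgre1*, *Fcrls*, *P2ry6*, *Irf8*, *C3ar1*, *Tlr13*, *Cd86*, *Lbp*, *Ly86*, *Kit*, *Plek*, *Lcp1*, *Cyba*, *Ncf1*, *Ncf4* and the genes named at the end of the closing section were chosen after their values were seen. Of 213 listed genes, 12 had no single-gene probe set and are not analysed here. Alternatives were quantile normalization over gene probe sets, centring of each array, a floor at the median signal, leaving out dim genes, the mean of probe sets and other fold limits. The steps were checked on simulated data. Promoter sequences and gene order are from RefSeq (GRCm38.p6), not from the array's annotation. Python 3.11.15, numpy 2.4.6, pandas 2.3.3 and matplotlib 3.10.9 were used.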

Additional observations from a re-analysis of the deposited data

Results flagged for a closer look

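*Tlr2* was the only one of the 34 genes whose FSK responses went opposite ways in the genotypes by at least 0.1 on the log2 scale each. Its response was 0.17 in WT and -0.16 in the KO, from signals of 7.30 and 7.47 in WT against 7.56 and 7.40 in the KO. The difference between the genotypes was not tested, since each response rests on 1 pair of arrays. Both responses lie within the middle 95% of genes that reached the median signal, which ran from -0.38 to 0.40 in WT and from -0.35 to 0.32 in the KO.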

How the results depend on the processing

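No paired analysis was possible because each group has 1 array, and for the same reason no array could be left out. Of 146 values of counts and list medians under the alternatives, 136 stayed within 1.5 times the count or within 0.1 of the median. The 26 values under the mean of probe sets could not move, as each member has 1 probe set. No median of at least 0.1 in size changed sign. Smaller medians were not checked for sign, among them the FSK response over all members at -0.05 in each genotype. With quantile normalization over the gene probe sets, 1 member in place of 2 was 2-fold or more above WT in the KO with FSK, as *F13a1* came to 0.98. With each array centred on its median, 2 members in place of 4 had both KO arrays below both WT arrays, *Cd68* and *Msr1*. At a limit of 1.5-fold, 1 member was lower in the KO with FSK and 1 was higher with FSK in WT, *Cd14* in both cases. At 1.25-fold, a limit added after the data were seen, 9 members were higher in the KO with vehicle, and 11 were higher and 2 lower with FSK. For the FSK response it gave 1 higher and 5 lower in WT and 4 lower in the KO. All 676 values of single members moved by less than 0.296, the SD of differences between probe sets of a gene. Of these, 136 under the mean of probe sets and 132 under leaving out dim genes could not move. Each member has 1 probe set, and leaving out other genes changes no signal. The limit of 0.296 is wider than the median genotype differences of 0.16 with vehicle and 0.13 with FSK, so staying within it says little about them. With 1 array per group, differences of this size cannot be set against an error between cultures.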

Other observations

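Genes of class I antigen presentation were among the companion genes that were higher in the KO on both pairs of arrays. *H2-K1*, a class I heavy chain gene, differed by 0.75 with vehicle and 0.87 with FSK. *Tap1*, a peptide transporter gene, differed by 0.57 and 0.45 and *B2m*, the class I light chain gene, by 0.32 and 0.30. All cell types of the culture can express these genes. The class II genes *H2-Aa*, *H2-Ab1* and *H2-Eb1* were dim on all arrays, between 3.86 and 5.48. Over the 9 antigen presentation genes measured, the median difference was 0.29 with vehicle and 0.27 with FSK.

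Genes that microglia raise in disease were mostly level between the genotypes, with medians of 0.05 and 0.04 over 15 genes. The highest differences with vehicle were those of *Clec7a*, the receptor dectin-1, at 0.82 and 0.55, *Apoe* and *Cst7*, the cystatin F gene, at 0.41 and 0.16. The apolipoprotein E gene *Apoe*, which astrocytes also express, had signals of 9.47 and 9.26 in WT against 9.94 and 10.26 in the KO, differences of 0.46 and 1.00. The *Apoe* responses to FSK were -0.21 in WT and 0.33 in the KO. *Csf3r*, the receptor gene for granulocyte colony-stimulating factor, differed by 0.54 and 0.77. The FSK response of *Csf2rb*, the shared signaling chain of the receptor for granulocyte-macrophage colony-stimulating factor, was 0.46 in WT and 0.15 in the KO. That of its close copy *Csf2rb2* was 0.19 and 0.52, and probes may not separate the copies.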
